A study of Mus musculus with 12 samples.

Results

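The genes described here encode the receptor-mediated endocytosis machinery of the kidney proximal tubule, the first segment of the nephron. They are Lrp2, Cubn, Amn, Lrpap1, Dab2, Myo6, Ap2m1, Clcn5, Ocrl and Fcgrt. These were taken by name from what is known of this pathway, at a time when earlier results of these data were known. These 10 genes stand among the 46095 gene symbols of the count table, and all 10 passed the filter on low counts that left 17530 genes for testing. In brief, Dab2 was called higher in diabetic nephropathy with sodium butyrate than in normal controls, but narrowly. The call was lost when any of several single libraries was left out. A difference of Dab2 between diabetic nephropathy with and without sodium butyrate was not detected. No other member passed the test in any of the 3 comparisons.

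The proximal tubule takes filtered proteins back from the primary urine. Megalin, encoded by Lrp2, is a giant receptor of the low-density lipoprotein receptor family. It works beside cubilin, a large receptor with no membrane-spanning part of its own, which amnionless, encoded by Amn, carries to the cell surface and anchors there. Both bind albumin, vitamin carriers, hormones and small proteins, enter the cell through clathrin-coated pits, release their cargo in acidic endosomes and return to the brush border, while most cargo goes on to lysosomes.

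RNA-seq libraries were made from renal cortex of C57BL/6 mice aged 12 weeks. There were 4 libraries of diabetic nephropathy mice given sodium butyrate, the salt of a short-chain fatty acid (DN+NaB), 4 of diabetic nephropathy mice (DN) and 4 of normal controls (NC). The labels do not say how diabetes was brought about in the DN+NaB and DN mice, and give no dose, route or length of treatment for sodium butyrate, so neither the kind of diabetes nor the stage of kidney disease is known here. Which animal a library came from is not labelled, and the p-values therefore reflect only how these samples vary, which may be technical. Because the RNA came from bulk tissue, fewer cells of a type and less RNA per cell cannot be told apart.

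Total counts lay between 58394975 and 70674015 per library. The tissue label reads renal cortex but the extraction text of the same samples speaks of prefrontal cortex. Umod, known from the thick ascending limb, had 165229 to 481314 counts per library. Snap25, a gene of nerve terminals, had 0 counts in each of the 12 libraries, where a count of 0 allows up to 3 counts, and Slc17a7, a glutamate transporter gene of neurons, had 0 to 2. Mbp and Gfap, known from glia, had 942 to 1501 and 2 to 41 counts. Replicate 4 of DN stood apart from the other DN libraries on the second principal component, at -39.67 against -10.39 to 5.85. It also held the most counts of Havcr1 and Lcn2, which are known as tubule injury genes, with 1026 and 14915, against 5 to 75 and 140 to 731 in the other 11 libraries. Member values and list counts of DN over NC are therefore also given without it.

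Promoter sequences are shown for the 2 receptors, for the partner of cubilin and for Dab2, the member whose call the results turn on. They are RefSeq sequences of GRCm38.p6, from 250 bases before to 50 bases after the annotated start, written 5′ to 3′ on the strand of the gene. They are chr2:69585980-69586279 on the minus strand for Lrp2, chr2:13491827-13492126 on the minus strand for Cubn, chr12:111270846-111271145 on the plus strand for Amn and chr15:6386498-6386797 on the plus strand for the downstream of 2 annotated starts of Dab2. Capitals mark the GC box GGGCGG, the CCAAT box CCAAT, the E-box CACGTG bound by factors such as TFEB and USF, and the HNF1 motif GTTAAT, on either strand.
Lrp2: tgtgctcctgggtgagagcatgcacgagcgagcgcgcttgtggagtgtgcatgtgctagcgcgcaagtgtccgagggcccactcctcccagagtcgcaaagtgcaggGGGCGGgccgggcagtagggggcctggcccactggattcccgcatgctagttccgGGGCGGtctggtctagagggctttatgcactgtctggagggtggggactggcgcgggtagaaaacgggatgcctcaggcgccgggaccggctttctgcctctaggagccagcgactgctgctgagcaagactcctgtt
Cubn: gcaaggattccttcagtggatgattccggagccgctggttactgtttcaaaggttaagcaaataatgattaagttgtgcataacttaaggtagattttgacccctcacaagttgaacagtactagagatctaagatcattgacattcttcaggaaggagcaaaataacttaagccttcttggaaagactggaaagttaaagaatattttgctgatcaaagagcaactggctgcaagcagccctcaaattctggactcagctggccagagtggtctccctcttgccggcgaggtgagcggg
Amn: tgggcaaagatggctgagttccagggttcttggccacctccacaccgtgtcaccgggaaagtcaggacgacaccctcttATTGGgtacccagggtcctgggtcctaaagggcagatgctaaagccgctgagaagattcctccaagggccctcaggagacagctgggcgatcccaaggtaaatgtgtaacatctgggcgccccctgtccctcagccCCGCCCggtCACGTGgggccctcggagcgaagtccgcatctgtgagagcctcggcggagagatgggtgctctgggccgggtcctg
Dab2: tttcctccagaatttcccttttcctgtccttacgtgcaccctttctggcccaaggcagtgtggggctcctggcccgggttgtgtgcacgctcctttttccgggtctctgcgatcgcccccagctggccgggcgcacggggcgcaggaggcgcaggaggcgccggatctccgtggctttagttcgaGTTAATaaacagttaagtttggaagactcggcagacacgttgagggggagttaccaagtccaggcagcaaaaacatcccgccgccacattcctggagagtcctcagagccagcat

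Each of the 10 members had at least 1 promoter in the RefSeq set, and 2 members, Dab2 and Clcn5, had more than 1. In what follows a member is counted if any of its starts held a motif, while the shares are of single promoters. The 10 members had 12 promoters. The GC box was found for 7 of 10 members, against 35.7% of all 32851 promoters of that length. Lrp2 held it at -143 and -88 from the start, Amn at -35, and neither start of Dab2 nor the start of Cubn held it. CCAAT was found for 2 members, Amn and Myo6, against 37.4% of all promoters. CACGTG was found for 2, at -26 of Amn and -174 of Ap2m1, against 7.15% of all promoters. GTTAAT was found for 1, at -65 of the downstream start of Dab2, against 7.10%. TATAAA was found for 1, the second start of Clcn5, against 13.6%, and the nuclear receptor motif AGGTCA for 0 of 10, against 16.3%. Both strands were searched, and no match of 1 motif overlapped a match of another motif. These are matches of letters in these windows and describe no binding.

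Lrp2 was by far the most abundant member. Its CPM, the read count scaled to library size, divided by the length of its merged exons in kilobases averaged 665 ± 90.8 CPM per kb over the 12 libraries (SD), and the gene alone took 0.905% to 1.28% of the counts of a library. Cubn followed with 178 ± 30.7 CPM per kb. In all 12 libraries Lrp2 was above Cubn and Cubn was above the next member. Then came Fcgrt with 113 ± 12.2, Dab2 with 99.5 ± 16.2, Lrpap1 with 93.6 ± 12.1 and Amn with 78.8 ± 14.3 CPM per kb. Those neighbours were less clearly ordered, since Fcgrt exceeded Dab2 in 8 of 12 libraries and Dab2 exceeded Lrpap1 in 7. Lrpap1 exceeded Amn in 11 and Amn exceeded Myo6 in 12. The lower levels were 29.0 ± 3.27 CPM per kb for Myo6, 23.6 ± 2.83 for Ap2m1, 19.5 ± 2.03 for Clcn5 and 1.97 ± 0.250 for Ocrl. Myo6 exceeded Ap2m1 in 10 libraries, Ap2m1 exceeded Clcn5 in 10 and Clcn5 exceeded Ocrl in 12. Lengths came from a GENCODE annotation, and the isoforms used in these kidneys were not measured.

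**Figure D1:**
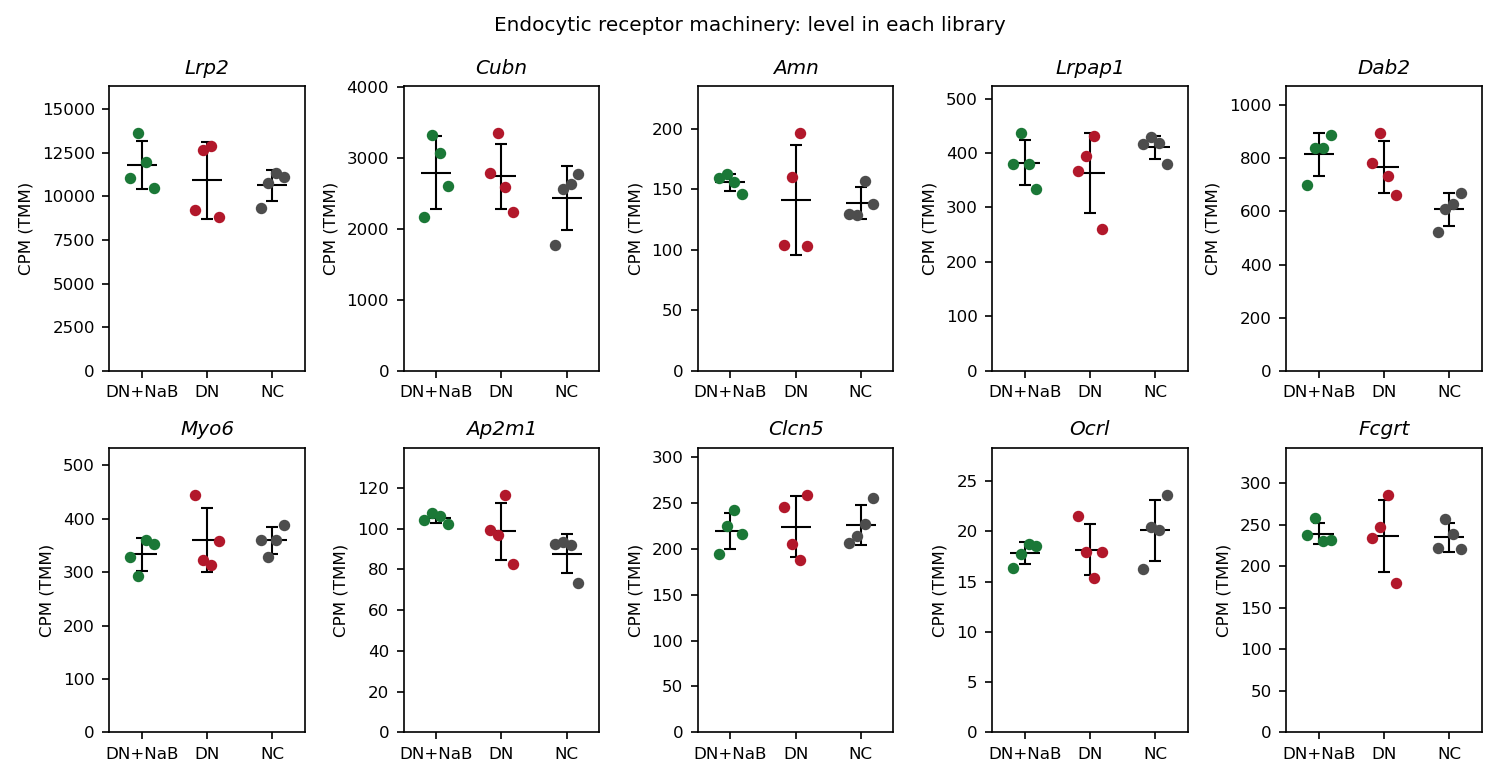
CPM of each of the 10 members in each library, with 1 panel per gene and the groups DN+NaB, DN and NC from left to right. Points are libraries and bars are the group mean and SD. The Dab2 points of DN+NaB lie above all those of NC, while the Lrp2 and Amn points of DN fall into a higher and a lower pair.

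Among the receptors, Lrp2, the megalin gene, had 11026, 13599.8, 11994 and 10478 CPM in DN+NaB, 9208, 12681, 12909.7 and 8835 CPM in DN, and 9313, 10748, 11324 and 11109 CPM in NC. The 3 groups overlapped, and the spread was widest in DN, where replicates 2 and 3 were high and replicates 1 and 4 were low. Lrp2 averaged 10908 ± 2186 CPM in DN and 10624 ± 906 CPM in NC (SD, n = 4 each). The log2 fold change of DN over NC was 0.04 ± 0.15 (SE), with a 95% interval of -0.29 to 0.36 and an adjusted p of 0.925 by edgeR's quasi-likelihood test. For DN+NaB, with 11775 ± 1369 CPM, the log2 fold change was 0.11 ± 0.15 over DN (adjusted p 0.831) and 0.15 ± 0.15 over NC (adjusted p 0.547). With replicate 4 of DN left out, the value of DN over NC was 0.11 and was not called.

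Cubn, the cubilin gene, had 2173, 3326, 3066 and 2609 CPM in DN+NaB, 2783, 3345, 2588 and 2241 CPM in DN, and 1779, 2563, 2631 and 2775 CPM in NC. The groups overlapped, and replicate 1 of NC was the lowest library. The log2 fold change was 0.17 ± 0.17 for DN over NC, 0.03 ± 0.17 for DN+NaB over DN and 0.20 ± 0.17 for DN+NaB over NC, with adjusted p values of 0.640, 0.968 and 0.482. The intervals of these differences reached 0.54, 0.40 and 0.57 on the log2 scale, so a rise of that size could not be told from none. The values over NC rested in part on replicate 1 of NC, and without it they were 0.036 for DN and 0.068 for DN+NaB.

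Amn, which encodes the membrane anchor of cubilin, had 159, 163, 156 and 146 CPM in DN+NaB, 104, 160.0, 196 and 103 CPM in DN, and 130, 129, 157 and 138 CPM in NC. The DN libraries spread far on both sides of the others, in the same high and low pairs as for Lrp2. The coefficient of variation, which is the SD as a percent of the mean, was 4.50% in DN+NaB, 32.3% in DN and 9.47% in NC. Amn passed no test, with log2 fold changes of 0.02 ± 0.18 for DN over NC, 0.15 ± 0.18 for DN+NaB over DN and 0.17 ± 0.18 for DN+NaB over NC (adjusted p 0.962, 0.808 and 0.547). The value of DN over NC was 0.12 without replicate 4 of DN and -0.18 without replicate 3 of DN, and neither was called.

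Lrpap1 encodes the chaperone known as RAP, which keeps megalin from binding ligands before it reaches the surface. It had 380.2, 436, 379.7 and 335 CPM in DN+NaB, 368, 394, 431 and 261 CPM in DN, and 416, 429, 418 and 379.5 CPM in NC. Replicate 4 of DN was the lowest library, and the groups overlapped. The log2 fold change was -0.18 ± 0.14 for DN over NC, 0.07 ± 0.14 for DN+NaB over DN and -0.10 ± 0.14 for DN+NaB over NC (adjusted p 0.518, 0.877 and 0.667). The value of DN over NC came to -0.067 without replicate 4 of DN and to -0.27 without replicate 3 of DN.

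Ratios within a library compare partners without a scaling factor. They do not cancel effects that differ between genes, such as the trends with GC content given below, whose part in the ratios was not tested. The count of Lrpap1 was 3.45%, 3.20%, 3.17% and 3.19% of that of Lrp2 in DN+NaB, 3.99%, 3.11%, 3.34% and 2.95% in DN, and 4.46%, 3.99%, 3.69% and 3.42% in NC. The values of DN+NaB ran close together, and its highest library stood just above the lowest of NC. The log2 difference of DN+NaB minus NC was -0.25 with a two-sided exact permutation p of 0.0571, which is 0.514 when adjusted over the 9 ratio comparisons, and the smallest p that 4 against 4 libraries can give is 0.0286. The difference was -0.22 for DN minus NC (exact permutation p 0.114) and -0.03 for DN+NaB minus DN (exact permutation p 0.829). For Cubn to Lrp2 the differences were -0.10 for DN+NaB minus DN, 0.15 for DN minus NC and 0.05 for DN+NaB minus NC, and for Amn to Cubn 0.18, -0.20 and -0.02. None of the 9 comparisons passed.

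**Figure D2:**
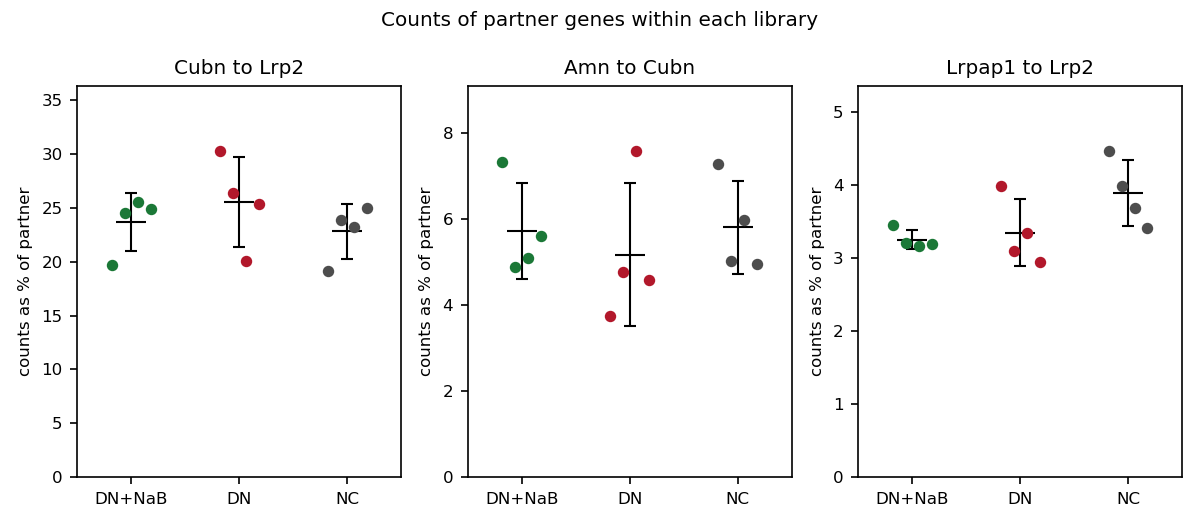
Counts of Cubn as a percent of those of Lrp2, of Amn as a percent of Cubn and of Lrpap1 as a percent of Lrp2 in each library, with DN+NaB, DN and NC from left to right in each panel. Points are libraries and bars are the group mean and SD. The groups overlap in every panel, and the Lrpap1 to Lrp2 values of DN+NaB, between 3.17% and 3.45%, are the most tightly grouped of that panel.

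Among the cytoplasmic partners, Dab2 encodes the adaptor that binds the tail of megalin and links it to clathrin and to myosin VI. It had 700.3, 837, 839 and 889 CPM in DN+NaB, 783, 894, 733 and 661 CPM in DN, and 523, 610.2, 629 and 669.5 CPM in NC. All 4 DN+NaB libraries lay above all 4 NC libraries, and 3 of the 4 DN libraries did. Dab2 rose in DN+NaB over NC, with 816 ± 80.9 CPM in DN+NaB and 608 ± 61.8 CPM in NC (SD, n = 4 each). The log2 fold change was 0.43 ± 0.12, or 1.34-fold, with a 95% interval of 0.16 to 0.69 and an adjusted p of 0.0312 by edgeR's quasi-likelihood test. Over NC, DN showed 0.34 ± 0.12, with an unadjusted p of 0.0160 and an adjusted p of 0.116, which misses the threshold. For DN+NaB over DN the value was 0.09 ± 0.12 (interval -0.17 to 0.35, adjusted p 0.832), so a difference between these groups was not detectable with 4 libraries each. The 2 comparisons with NC share the NC libraries.

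The call of Dab2 was a narrow one. It was lost when any of NC replicates 1, 2 and 3 or DN+NaB replicates 2, 3 and 4 was left out, with log2 fold changes of 0.35, 0.42, 0.44, 0.41, 0.41 and 0.38 and adjusted p values of 0.111, 0.0732, 0.0665, 0.0780, 0.0747 and 0.0917. It was also lost with scaling by library size alone (0.31, adjusted p 0.0761), a scaling that moved the median of all genes in this comparison by -0.11. With replicate 4 of DN left out it was 0.41 with an adjusted p of 0.0218, and DN over NC was 0.38 with an adjusted p of 0.0617. Reads of Dab2 could also come from Gm18888, a processed pseudogene on the opposite strand. It shares 211 bases with the exons of Dab2, or 2.87% of them. Gm18888 was given 0 counts in every library. Since the counting program and strand use are not known, that 0 cannot tell whether reads of the shared bases came from it. The exons of Cubn share 368 bases with Gm13270 on the opposite strand, which had 0 to 6 counts per library.

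Ap2m1 encodes the mu subunit of the clathrin adaptor complex AP2. It had 104, 108, 106 and 102 CPM in DN+NaB, 99.5, 96.7, 117 and 82.5 CPM in DN, and 92.3, 93.2, 92.0 and 73.4 CPM in NC. The DN+NaB libraries lay above all NC libraries within a narrow band, but the gene did not pass the test over all genes. The log2 fold change of DN+NaB over NC was 0.26 ± 0.11, with an unadjusted p of 0.0382 and an adjusted p of 0.140. It was 0.17 ± 0.11 for DN over NC and 0.09 ± 0.11 for DN+NaB over DN (adjusted p 0.422 and 0.819). Both values over NC were smaller without the low replicate 4 of NC, at 0.17 for DN+NaB (adjusted p 0.302) and 0.082 for DN (adjusted p 0.693). DN over NC was 0.084 without replicate 3 of DN.

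Myo6 encodes myosin VI, the motor that moves towards the minus end of actin filaments and carries new vesicles away from the microvilli. It had 329, 292, 360.3 and 353 CPM in DN+NaB, 444, 323, 312 and 359 CPM in DN, and 360.1, 328, 360.5 and 388 CPM in NC. The highest library was replicate 1 of DN and the groups overlapped. The log2 fold changes were 0.0010 ± 0.12 for DN over NC, -0.11 ± 0.12 for DN+NaB over DN and -0.11 ± 0.12 for DN+NaB over NC (adjusted p 0.999, 0.796 and 0.593).

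Among the endosomal members, Clcn5 encodes ClC-5, the chloride-proton exchanger of early endosomes whose loss causes Dent disease in people. It had 195, 225, 242 and 216 CPM in DN+NaB, 245, 205, 188 and 258 CPM in DN, and 206, 214, 227 and 255 CPM in NC. No group stood apart, and the log2 fold changes were -0.01, -0.03 and -0.04 for DN over NC, DN+NaB over DN and DN+NaB over NC, each ± 0.12. The interval of DN over NC ran from -0.27 to 0.25. Ocrl encodes the inositol phosphatase lost in people with Lowe syndrome and was the scarcest member, with 963 to 1703 counts per library. It had 16.4, 17.8, 18.7 and 18.5 CPM in DN+NaB, 21.5, 17.9, 15.3 and 17.97 CPM in DN, and 16.2, 20.5, 20.1 and 23.6 CPM in NC. Its groups overlapped, with log2 fold changes of -0.14 ± 0.14, -0.03 ± 0.14 and -0.17 ± 0.14 in the same order (adjusted p 0.596, 0.962 and 0.428).

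Fcgrt encodes the neonatal Fc receptor, which spares albumin and immunoglobulin G from lysosomes. It had 238, 258, 231 and 231 CPM in DN+NaB, 234, 247, 286 and 180 CPM in DN, and 222, 258, 239 and 222 CPM in NC. Both the highest and the lowest library were in DN, and the group means lay within 5 CPM of each other, at 239.5 ± 12.8 CPM in DN+NaB, 237 ± 43.9 CPM in DN and 235 ± 17.1 CPM in NC. The log2 fold changes were 0.01 ± 0.13, 0.02 ± 0.13 and 0.03 ± 0.13 for DN over NC, DN+NaB over DN and DN+NaB over NC (adjusted p 0.978, 0.973 and 0.907).

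Counted together, 0 of 10 members were called in DN over NC, where 8.23% of all tested genes were called. At an unadjusted p under 0.05 it was 1 of 10, Dab2, against 21.9% of all genes, and DESeq2 called 0, against 2145 of 17530 genes. Without replicate 4 of DN the count was also 0 of 10, against 11.1% of genes. In DN+NaB over DN 0 of 10 were called, against 0.0228% of genes, and 0 by DESeq2, against 257 of 17530 genes. It was 0 at an unadjusted p under 0.05, against 9.85%. With replicate 4 of DN left out, 0 of 10 were called, against 0.146%. For DN over NC that refit gave 0.11 for Lrp2, 0.24 for Cubn, 0.12 for Amn, -0.067 for Lrpap1, 0.38 for Dab2, -0.015 for Myo6, 0.23 for Ap2m1, -0.10 for Clcn5, -0.16 for Ocrl and 0.10 for Fcgrt, with adjusted p values from 0.0617 to 0.958. The only member called in DN+NaB over NC was Dab2, 1 of 10, which rose, against 15.6% of genes called in either direction and 6.62% called higher. At an unadjusted p under 0.05 it was 2 of 10, against 30.1%. Without replicate 4 of DN in the fit 1 of 10 was called, against 20.8%. DESeq2 also called Dab2 alone, against 3560 of 17530 genes. Groups that did not overlap were seen for 2 of 10 members in DN+NaB over NC, against 27.9% of genes. In DN over NC they were seen for 0 of 10, against 13.3%, and in DN+NaB over DN for 0 of 10, against 4.56%. In either direction these shares of the members lie below those of all genes, but 10 members are too few to tell the shares apart. Where only 0.0228% of genes were called, 0 of 10 shows nothing particular to the members. The 1 of 10 called higher is close to 6.62%. The median log2 fold change of the members was 0.02, 0.05 and 0.09 in DN over NC, DN+NaB over DN and DN+NaB over NC, against 0.01, -0.02 and -0.01 over all genes tested.

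**Figure D3:**
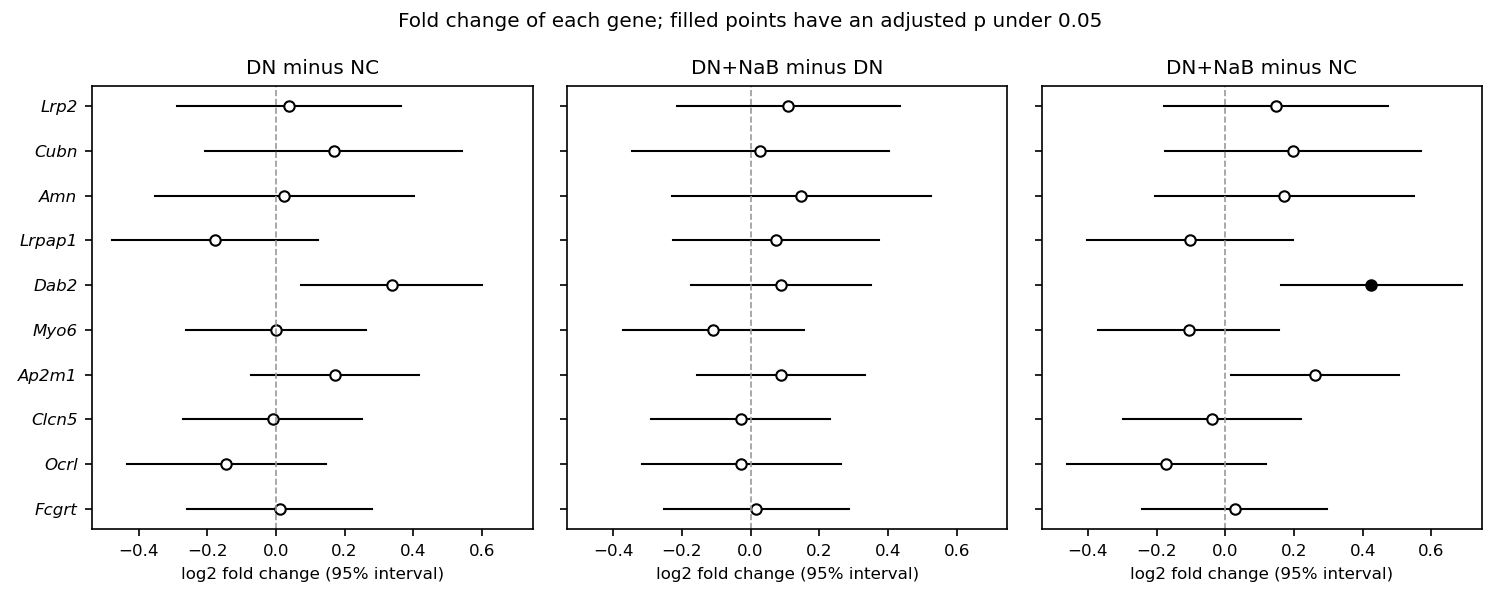
Log2 fold change of each member with its 95% interval in DN over NC, DN+NaB over DN and DN+NaB over NC. A point right of 0 is higher in the group named first. Only Dab2 in DN+NaB over NC, at 0.43, passed the adjusted p threshold of 0.05.

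Members also differed between libraries of 1 group, and some did so together. Over the 12 libraries the log2 CPM of Lrp2 and Amn had a Pearson r of 0.88 (permutation p 0.00013, adjusted over 45 pairs of members 0.00585) and a Spearman rho of 0.90 (permutation p 9e-05, adjusted 0.00405). It was 0.87 without the 2 libraries farthest from the median of Lrp2 and 0.87 after the group means were taken out. Of the 45 pairs, 4 passed by Pearson's r and all 4 were positive. The others were Fcgrt with Lrpap1 (r 0.85, rho 0.80, adjusted permutation p 0.0395 and 0.0571), Cubn with Dab2 (r 0.78, rho 0.72, adjusted 0.0395 and 0.101) and Lrp2 with Fcgrt (r 0.73, rho 0.66, adjusted 0.0450 and 0.101). Without the 2 farthest libraries these fell to 0.53, 0.53 and 0.58, so they rest in part on those libraries. By Spearman's rho only Lrp2 with Amn passed. The share of pairs of other genes that would pass was not tested, so these counts show nothing particular to the members. Zdhhc12, which is not a member, had a higher r with Lrp2 than Amn had, at 0.95.

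The GC content of the transcripts differed between the members. It was 62.9% for Amn, 55.9% for Fcgrt, 52.8% for Lrpap1, 50.6% for Ap2m1, 49.1% for Lrp2, 46.4% for Ocrl, 46.4% for Cubn, 45.7% for Dab2, 44.7% for Clcn5 and 44.2% for Myo6. Over 12792 genes, the deviation of a library from the mean over the 12 libraries followed GC content by a different amount in each library. The slope in log2 units per 10 points of GC was 0.28, 0.19, -0.07 and -0.07 in DN+NaB, -0.19, 0.04, 0.35 and -0.29 in DN, and 0.05, 0.02, -0.0017 and -0.31 in NC. Replicate 3 of DN, where Amn and Lrp2 were high, had the steepest positive slope, and replicate 4 of DN, where both were low, a steep negative one. Replicate 1 of DN, with a slope of -0.19, had deviations of -0.45 for Amn and -0.26 for Lrp2. The steepest negative slope was in replicate 4 of NC, where the deviations of Amn and Lrp2 were -0.051 and 0.013. Replicate 1 of DN+NaB, with a slope of 0.28, had 0.16 for Amn and 0.0025 for Lrp2. With the trend of each library taken out, Lrp2 with Amn kept an r of 0.82, Fcgrt with Lrpap1 0.78 and Cubn with Dab2 0.81, while Lrp2 with Fcgrt fell to 0.44. Lrp2 with Cubn, whose r was 0.68 (rho 0.57, adjusted permutation p 0.0708 and 0.125), came to 0.84. Negative values such as -0.67 for Clcn5 with Fcgrt and -0.70 for Lrp2 with Myo6, which had not passed, came to 0.0024 and -0.31. What part GC content had in the fold changes was not tested beyond that refit, in which Dab2 in DN+NaB over NC was 0.51 with an adjusted p of 0.00825.

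**Figure D4:**
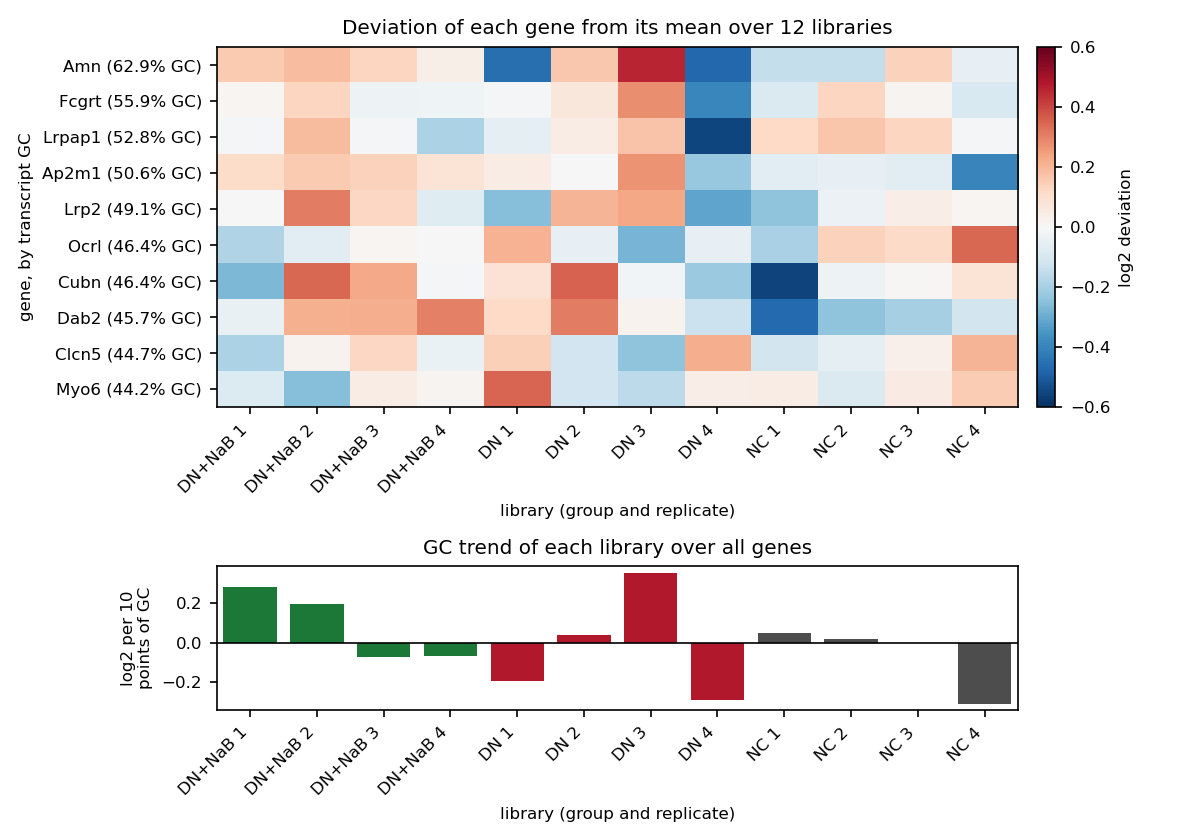
Top, deviation of each member from its mean over 12 libraries, in log2 CPM and as colour, with members ordered down the page by the GC percent of their transcripts and the libraries of DN+NaB, DN and NC from left to right. Bottom, the slope of all genes on GC content in each library as bars, where replicate 3 of DN reaches 0.35 and is high for Amn, replicate 4 of DN is at -0.29 and low for it, and replicate 4 of NC is at -0.31 with Amn near its mean.

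Genes whose level over the 12 libraries was most like that of the receptors were looked for among 8625 genes above a mean of 10 CPM. For Lrp2 they were Zdhhc12 (r 0.95), Hectd3 (0.93), Vrk3 (0.93), Zfand2b (0.93) and Pde6a (0.91). For Cubn they were Mettl23 (0.88), Glb1l (0.88), Ugt1a7c (0.88), Cnot9 (0.87) and Slc17a1 (0.86). For Amn they were Faap100 (0.95), Mcat (0.95), Susd2 (0.95), Ass1 (0.94) and Pex16 (0.93). These values describe 12 libraries whose GC trends differ, and no other member was among them.

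Other genes of the pathway were called in the comparisons with NC, and in DN+NaB over DN 0 genes of any of the lists that follow were called, also without replicate 4 of DN. Only 0.0228% of all tested genes were called in DN+NaB over DN, and 0.146% without replicate 4 of DN. A count of 0 there shows nothing particular to a list. Of all tested genes 8.23% were called in DN over NC, 11.1% there without replicate 4 of DN, and 15.6% in DN+NaB over NC. A count near these shares, such as 3 of 20 in DN+NaB over NC, shows nothing particular to a list. Clathrin coat, adaptor and scission genes rose for 2 of 16 in DN over NC and for 4 of 16 in DN+NaB over NC, and none fell, with medians of 0.14 and 0.21. Leaving out replicate 4 of DN gave 3 of 16 higher in DN over NC. Synj2, a phosphoinositide phosphatase that helps to uncoat vesicles, rose by 1.41 ± 0.13 in DN and 1.45 ± 0.13 in DN+NaB on the log2 scale (adjusted p 1.76e-05 and 1.21e-05). It averaged 10.9 ± 1.15 CPM in DN+NaB, 10.7 ± 1.15 CPM in DN and 4.00 ± 0.158 CPM in NC. Hip1r, which ties coated pits to actin, rose by 0.54 in DN and 0.44 in DN+NaB. Ap2a2, a large subunit of AP2, rose in DN+NaB over NC by 0.63 ± 0.11 (adjusted p 0.00213), as did Gipc1, which links myosin VI to cargo, by 0.39 ± 0.12 (adjusted p 0.0353).

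Endosome sorting and recycling genes rose for 2 and fell for 1 of 20 in DN over NC, and rose for 3 and fell for 0 in DN+NaB over NC, with medians of 0.17 and 0.11, and with the same counts in DN over NC without replicate 4 of DN. Rab11fip3, an effector of the recycling GTPase Rab11, averaged 886 ± 53.2 CPM in DN+NaB, 673 ± 181 CPM in DN and 444 ± 30.4 CPM in NC. It rose 1.99-fold in DN+NaB and 1.51-fold in DN over NC (adjusted p 0.000771 and 0.0281). Rab4a, a GTPase of fast recycling, rose by 0.59 in DN+NaB and 0.43 in DN. Ehd3 fell by 0.69 in DN, and Appl2 rose by 0.56 in DN+NaB.

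Acidification genes rose for 2 of 15 in both comparisons with NC and fell for 0 in DN and 3 in DN+NaB, with medians of 0.03 and 0.12. Neither this count nor that of the lysosomal genes in DN over NC differed without replicate 4 of DN. The proton pump subunit genes Atp6v1b2 and Atp6v0a4 rose by 0.55 and 0.37 in DN+NaB and by 0.44 and 0.41 in DN. Another pump gene, Atp6v1a, fell by 0.42 in DN+NaB, and Clcn3, a relative of Clcn5, fell by 0.80 ± 0.11 there (adjusted p 0.000325). Lysosomal genes rose for 3 and fell for 1 of 19 in DN and rose for 6 and fell for 1 in DN+NaB, with medians of 0.27 and 0.28. Lgmn, the protease legumain, averaged 1893 ± 123 CPM in DN+NaB, 1820 ± 405 CPM in DN and 1124 ± 69.9 CPM in NC, a rise of 0.75 ± 0.14 in DN+NaB and of 0.69 ± 0.14 in DN over NC. Ctsb, cathepsin B, rose by 0.52 and 0.45, and Gla by 0.48 in both, while Ctsh, cathepsin H, fell by 0.48 in DN+NaB and 0.46 in DN.

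Brush border scaffold genes were called for 0 of 12 in DN over NC, with 5 at an unadjusted p under 0.05, against 21.9% of all genes. In DN+NaB over NC 3 rose and 2 fell, with a median of -0.0016. Without replicate 4 of DN the count of DN over NC was 2 higher and 0 lower. Espn, the actin bundler espin, rose in DN+NaB over NC by 0.80 ± 0.18 and Myo7b, a myosin of the microvillus tip, by 0.55 ± 0.12, while Eps8 fell by 0.46 and Slc9a3r2 by 0.60. Chaperones of receptor folding and delivery rose for 2 of 8 in DN and 1 of 8 in DN+NaB, with medians of 0.40 and 0.04. In DN it was also 1 of 8 without replicate 4 of DN. Calr, calreticulin, rose by 0.60 ± 0.16 in DN+NaB and 0.76 ± 0.16 in DN, and Pdia4 rose by 0.54 in DN.

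Genes of ligands and cargo of the receptors rose for 6 and fell for 1 of 14 in DN over NC, and rose for 4 and fell for 1 in DN+NaB over NC, with medians of 0.40 and 0.28. Without replicate 4 of DN it was 5 and 1 with a median of 0.04. These are transcripts made in renal cortex, not protein taken up from the urine. Gc, the vitamin D binding protein, averaged 187 ± 23.6 CPM in DN+NaB, 207 ± 46.7 CPM in DN and 61.2 ± 6.13 CPM in NC, and rose by 1.62 ± 0.16 in DN+NaB and 1.76 ± 0.16 in DN. Apoe rose by 0.98 in DN+NaB and 1.15 in DN. Apoh rose by 1.82 ± 0.39 in DN, at a low level that spread widely there, with 6.02 ± 4.02 CPM in DN and 1.70 ± 0.265 CPM in NC. Lpl, lipoprotein lipase, fell by 1.85 in DN+NaB and 1.79 in DN.

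Other endocytic and scavenger receptors rose for 0 of 13 in either comparison with NC and fell for 5 in DN+NaB and 2 in DN, with medians of -0.46 and -0.38. In DN it was 3 with a median of -0.50 without replicate 4 of DN. Cd36, a fatty acid and lipoprotein receptor, averaged 18.8 ± 3.64 CPM in DN+NaB, 24.5 ± 8.46 CPM in DN and 123 ± 46.8 CPM in NC. It fell by 2.71 ± 0.30 in DN+NaB and by 2.33 ± 0.30 in DN (adjusted p 9.8e-05 and 0.000368). Mrc1, the macrophage mannose receptor, fell by 1.57 and 1.11. Lrp6, a coreceptor of Wnt from the same family as megalin, fell by 0.80 ± 0.15 in DN+NaB, and Scarb1 fell by 0.53 there. Of 10 transcription factors known from proximal tubule genes, 0 rose, and 2 fell in DN+NaB and 1 in DN, with medians of 0.03 and 0.15. Pparg fell in both, to 1.42 ± 0.458 CPM in DN+NaB and 1.49 ± 0.192 CPM in DN, against 2.84 ± 0.743 CPM in NC, and Nr1h4, the bile acid receptor FXR, fell by 0.71 in DN+NaB. Without replicate 4 of DN, 2 of the factors rose and 1 fell in DN over NC.

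**Figure D5:**
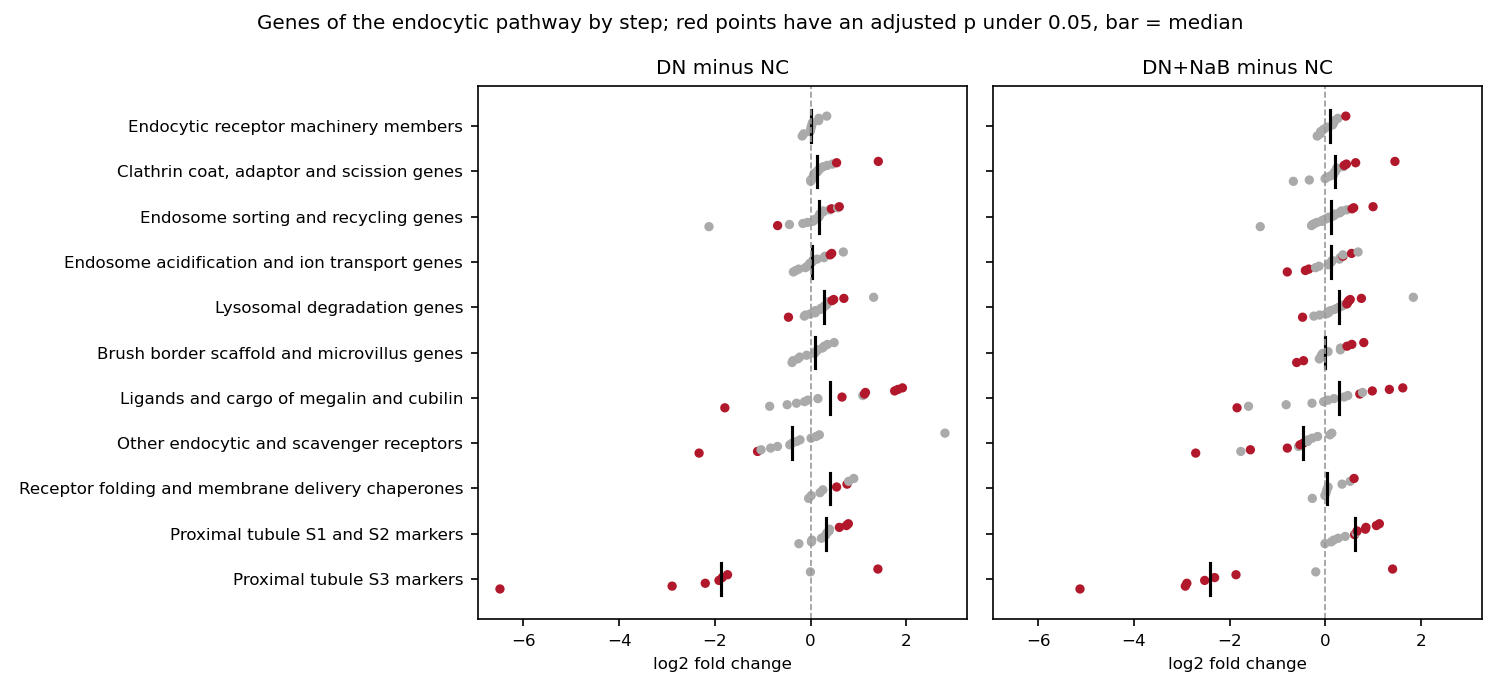
Log2 fold change of each tested gene of the members, 8 pathway lists and the 2 proximal tubule marker lists, with DN over NC in the left panel and DN+NaB over NC in the right. Red points were called and the black bar is the median of a list. The members lie near 0 with a median of 0.09 in DN+NaB over NC, while the median of other endocytic and scavenger receptors is -0.46.

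Called markers of the early proximal tubule rose, while called markers of its late segment fell, with the exception of Slc5a10, which rose. The 12 markers of the convoluted segments S1 and S2 summed to 25264 to 33784 CPM in DN+NaB, 18879 to 32056 in DN and 20945 to 23755 in NC, and rose for 6 and 3 of 12 in DN+NaB and DN over NC. Their medians were 0.63 and 0.33, and without replicate 4 of DN 5 of 12 rose in DN. The 8 markers of the straight segment S3 summed to 938 to 1499 CPM in DN+NaB, 1150 to 1751 in DN and 2732 to 3843 in NC, and fell for 6 and rose for 1 in both comparisons, with medians of -2.42 in DN+NaB and -1.88 in DN. Without replicate 4 of DN, 5 fell and 1 rose in DN. Slc22a7, an organic anion transporter of S3, averaged 3.48 ± 2.30 CPM in DN+NaB, 1.35 ± 0.380 CPM in DN and 122 ± 26.3 CPM in NC. The 9 leukocyte markers summed to 297 to 959 CPM in DN+NaB, 1109 to 4172 in DN and 874 to 1218 in NC, and fell for 6 of 9 in DN+NaB and 2 of 9 in DN over NC. In DN it was 4 of 9 with a median of -1.05, against -0.68, when replicate 4 of DN was left out. Most of the sum in DN was Cd74, an antigen presentation gene, with 482 ± 313 CPM in DN+NaB, 2600 ± 1442 CPM in DN and 833 ± 139.7 CPM in NC, which was not called in DN over NC (adjusted p 0.0711), while Csf1r and Cd4 fell there. No marker of these 3 lists was at 0 in a whole group. The 6 podocyte markers summed to 709.9 to 849.9 CPM in DN+NaB, 569.9 to 757 in DN and 568 to 710.5 in NC, and rose for 2 in DN+NaB over NC. The 6 endothelial markers summed to 535 to 634 CPM in DN+NaB, 484 to 588 in DN and 595 to 672 in NC, and fell for 1 in each comparison with NC. Thick ascending limb and distal tubule markers rose for 2 and fell for 3 of 8 in DN+NaB and rose for 1 and fell for 2 in DN, or 1 and 3 without replicate 4 of DN. Collecting duct markers were called for 0 of 7 in DN+NaB and fell for 2 in DN, and of the 4 brain markers tested 0 were called in either. The part of such shifts in the values of Dab2 and the other members was not tested.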

How the data were processed

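The authors deposited 1 table of raw read counts per gene symbol for 12 libraries. HISAT2 2.0.4 is listed per the submitters' processing notes. Counting program, strand use, annotation and build were not given in the sources used here. If strand was not used, reads of a gene and its antisense partner cannot be told apart. The members and gene lists were chosen with earlier results of these data known. Genes were filtered with filterByExpr, which left 17530, and scaled by TMM. All 12 libraries entered 1 edgeR 4.0.16 quasi-likelihood fit (robust, R 4.3.3) with group as the term. Calls had a Benjamini-Hochberg adjusted p under 0.05 over all genes, two-sided. SEs were derived from the F statistic, and intervals are 95%. CPM values were computed from the counts and TMM factors. Ratios were tested by exact permutation, adjusted over 9 comparisons, after 0.5 was added to each count. Correlations used log2 CPM with a prior count of 2 and 100000 permutations. Exon lengths and transcript GC came from GENCODE M21, and 90.8% of tested genes had a GC value. From each list, up to 4 genes with the smallest p per comparison could be named, and of each receptor the 5 most alike genes. Umod and brain genes were fixed to check the tissue label, and Havcr1 and Lcn2 were chosen after their values were seen. Libraries held 58394975 to 70674015 counts and at least 963 of each member. Poisson counting error was 0.117% to 2.99% of a member's group mean and at most 55.8% of the SD of a group (median 6.76%). Alternatives were RLE factors, library size alone, no filter, a filter of 1 CPM in 4 libraries, DESeq2 1.42.0, only the libraries compared, a replicate block, each library left out, a prior of 10 counts for ratios and removal of a GC trend. The fit was tested on simulated data.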

Additional observations from a re-analysis of the deposited data

Results flagged for a closer look

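In 3 of 39 sets of 4 values looked at, 1 library stood farther from the rest than Dixon's 95% limit allows. Chance alone does this in about 1 of 20 sets. Ap2m1 was lowest in replicate 4 of NC, with 73.4 CPM against 92.0 to 93.2 CPM in the other 3 NC libraries. The same library had the steepest negative GC slope of NC, and the part of that slope was not tested. The log2 ratio of Cubn to Lrp2 was lowest in replicate 1 of DN+NaB, at -2.34 against -2.03 to -1.97 in the other 3. In the same library the log2 ratio of Lrpap1 to Lrp2 was highest, at -4.86 against -4.98 to -4.96.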

How the results depend on the processing

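The call of Dab2 in DN+NaB over NC was kept in 6 of 7 planned fits on all libraries or groups and was lost with library size alone (0.31). Without 1 library it ran from 0.35 to 0.49, and the call was lost without NC replicate 1, 2 or 3, or without DN+NaB replicate 2, 3 or 4. No other member was called under any alternative. Several members near 0 changed sign. Library size alone moved the median of all genes by -0.096 in DN over NC and -0.11 in DN+NaB over NC, which is about the size of the changes it made. In DN over NC these were Lrp2 (-0.067), Amn (-0.086), Fcgrt (-0.093) and Myo6 (-0.093) with library size alone, Fcgrt (-0.0033) and Myo6 (-0.0089) with no filter, Amn (-0.0087), Fcgrt (-0.018) and Myo6 (-0.022) with the 1 CPM filter, and Amn (-0.049), Clcn5 (0.020) and Fcgrt (-0.051) with the GC trend removed, an alternative chosen after seeing the data. Against DN, for DN+NaB, the GC trend turned Clcn5 (0.049), Fcgrt (-0.040) and Ocrl (0.016). For DN+NaB over NC it turned Clcn5 (0.069), Fcgrt (-0.090) and Myo6 (0.0061), and Fcgrt also turned with library size alone (-0.083) and the 1 CPM filter (-0.0074). Leaving out 1 library gave, in DN over NC, -0.052 to 0.11 for Lrp2, -0.18 to 0.15 for Amn, -0.092 to 0.10 for Fcgrt, -0.12 to 0.063 for Myo6 and -0.10 to 0.067 for Clcn5. For DN+NaB over DN it gave -0.10 to 0.049 for Clcn5, -0.099 to 0.064 for Ocrl, -0.17 to 0.010 for Myo6, -0.066 to 0.14 for Cubn, -0.089 to 0.12 for Fcgrt and -0.051 to 0.17 for Lrpap1. For DN+NaB over NC it gave -0.013 to 0.072 for Fcgrt and -0.087 to 0.017 for Clcn5. The ratios ran from -0.029 to 0.14 for Cubn to Lrp2 and -0.15 to 0.090 for Amn to Cubn in DN+NaB minus NC, and from -0.089 to 0.056 for Lrpap1 to Lrp2 in DN+NaB minus DN. The cause of the other changes was not tested.

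Over all genes, 4 were called in DN+NaB over DN, against 22 with RLE factors, 26 with library size alone, 27 with no filter, 17 with the 1 CPM filter, 257 with DESeq2, 0 with only the 8 libraries compared, 69 with the GC trend removed and 0 to 67 without 1 library. It was 67, 26 and 14 without DN replicate 3, DN replicate 4 and NC replicate 4, 2 without DN+NaB replicate 3, and 0 without NC replicates 1 or 2, DN replicate 1 or DN+NaB replicates 1 or 4. In DN over NC 1443 were called, and 942 (without NC replicate 1) to 1976 (without DN replicate 4) when 1 library was left out. Library size alone changed the split of higher to lower calls to 875 and 2070 in DN+NaB over NC, against 1161 and 1568, and to 503 and 1103 in DN over NC, against 669 and 774. Same-number correlations were over 0.1 for 6 of 12 pairs of libraries (range -0.25 to 0.27, median 0.095), and different-number ones for 8 of 36 (median -0.020). Since not every same-number pair was over 0.1, the main fit did not pair the samples by number. That bar was strict, and these values do not settle whether the numbers pair the samples. With the replicate block, Dab2 in DN+NaB over NC was 0.42 and Amn and Myo6 in DN over NC were -0.012 and -0.0050, with 7 genes called in DN+NaB over DN, against 4.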
